A study of Mus musculus with 16 samples.

Results

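The genes described here are 5 genes for secreted bone morphogenetic protein (BMP) family ligands (Bmp2, Bmp3, Bmp4, Bmp7 and Gdf10), the 4 ID genes (Id1, Id2, Id3 and Id4) and the inhibitory SMAD gene Smad6. They were taken by name, 10 of the 27179 genes in the count files, after Entrez gene identifiers had been matched to symbols. The cells were neural stem and progenitor cells of the mouse, grown as neurospheres (floating spheres of dividing cells) from the forebrain of E14.5 foetuses (mid-gestation). Polyadenylated RNA of 16 cultures was sequenced. In the null groups the genotype was Kat7lox/loxNesCreT/+, in which Cre recombinase deletes Kat7, the gene of the histone acetyltransferase KAT7 (HBO1). In the intact groups it was Kat7+/+NesCreT/+, so the Nestin-driven Cre transgene, active in the neural lineage, was shared by all cells. Each genotype was sampled in proliferation medium (3 passages and 3 days) and after 3 days of differentiation on laminin that followed passage 3. Each of the 4 groups had 4 libraries. The design text can be read as 4 foetuses of a genotype that gave cultures to both conditions or as 4 for each condition, and no label ties libraries to foetuses, so p-values measure the spread between these libraries.

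BMP ligands bind pairs of type I and type II receptor kinases, which phosphorylate SMAD1, SMAD5 and SMAD9. With SMAD4 these enter the nucleus and raise transcription of the ID genes, the best known direct BMP targets, and of Smad6, whose product feeds back to block the receptors. ID proteins lack a DNA-binding region and hold back basic helix-loop-helix (bHLH) factors such as those that drive neuron and oligodendrocyte formation; in neural progenitors BMP signalling is known for favouring astrocytes.

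Library totals were 16.8 to 47.9 M counts. Levels are given as counts per M library counts (CPM) after scaling by trimmed mean of M values (TMM). Kat7 had 8 counts in the 4 null proliferating libraries and 1 count in the 4 null differentiating libraries, against group means of 139 ± 5.59 and 103 ± 3.08 CPM (SD, n = 4) for intact cells. Intact proliferating replicate 1 stood apart from the other libraries of its group, and its 7 oligodendrocyte lineage markers summed to 902 CPM against 241 to 317 CPM. Its astrocyte markers were highest too (1500 against 1020 to 1170 CPM), and its neuron markers lowest (942 against 1070 to 1080 CPM). Several results are therefore given with and without this library. Neural stem markers were abundant in every group, as the cell label states, with sums of 6320 to 6970 CPM in proliferating libraries. In differentiating libraries they summed to 3810 to 4940 CPM in null and 2540 to 3390 CPM in intact cells, without overlap. Endothelial markers summed to at most 4.7 CPM and microglial markers to at most 0.63 CPM in any library, with Cdh5 or Cldn5 and C1qa at 0 in each group. In bulk RNA, fewer cells of a type and less RNA per cell cannot be told apart.

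Among the ligand genes, Bmp4 differed most between the genotypes as a ratio in differentiating cells. Bmp4 (Entrez 12159; chromosome 14, 46383525 to 46390669 in GRCm38) encodes a ligand that acts in dorsal forebrain patterning and in glial differentiation. Its 4 intact differentiating libraries had 26.9, 52.8, 79 and 71.2 CPM, and its 4 null differentiating libraries 0.0697, 0.0306, 0.0426 and 0.145 CPM. All null libraries were far below all intact libraries, with 10 counts in total against 6768. The null level was 0.125% of the intact level (95% counting interval 0.060 to 0.230%), and edgeR's quasi-likelihood test gave a log2 fold change of -9.59 ± 1.32 (SE; Benjamini-Hochberg adjusted p = 9.1e-05).

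In proliferating cells Bmp4 was low in both genotypes. The intact libraries had 10.1, 0.487, 0.599 and 0.135 CPM, and no null library had a count. Replicate 1 alone held most of the intact signal. Over the group, intact cells were at least 97.4-fold higher than null cells (floor of 3 counts over the null group; edgeR adjusted p = 0.00695). Without replicate 1 that bound was 13.9-fold and the intact mean was 0.407 ± 0.242 CPM (SD, n = 3). On differentiation Bmp4 rose in intact cells by 4.35 ± 0.92 on the log2 scale (edgeR adjusted p = 0.00101), or by 7.14 without the proliferating replicate 1. In null cells the step from 0 counts to 10 counts did not pass the test (edgeR adjusted p = 0.425).

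Bmp2 (Entrez 12156; chromosome 2, 133552159 to 133562896), the ligand nearest to Bmp4 in the family, had the same order of group means, at lower levels per length of gene model. The intact proliferating libraries had 0.291, 0.108, 0.276 and 0.36 CPM and the null proliferating libraries had none. The intact differentiating libraries had 2.03, 1.3, 1.83 and 0.959 CPM, while 3 null differentiating libraries had no count and replicate 4 had 0.087 CPM. Null and intact libraries overlapped in neither condition. Bmp2 was at least 9.2-fold lower in null proliferating cells (edgeR adjusted p = 0.00219) and at 1.37% of the intact level in null differentiating cells (95% counting interval 0.281 to 4.08%; edgeR adjusted p = 2.94e-05). It rose by 2.52 ± 0.54 on the log2 scale as intact cells differentiated (edgeR adjusted p = 0.000982).

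Gdf10 (Entrez 14560; chromosome 14, 33923587 to 33936514), which encodes the BMP3-related ligand BMP3B, was a gene of the intact differentiating group. Its libraries there had 8.07, 3.87, 3.03 and 1.35 CPM. The null differentiating libraries had 0.0697, 0, 0.0852 and 0 CPM, or 6 counts in all. No null library reached the lowest intact library, and the log2 fold change was -6.49 ± 0.80 (edgeR adjusted p = 3.49e-05). In proliferating cells both genotypes were at or under the floor, with 2 counts in the intact libraries and none in the null libraries, so that no fold is given. In intact cells Gdf10 rose on differentiation (edgeR adjusted p = 1.73e-05), its proliferating level being 0.572% of the differentiating level (95% counting interval 0.0691 to 2.08%, from 2 counts).

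Bmp3 and Bmp7 moved the other way in differentiating cells. Bmp3 (Entrez 110075; chromosome 5, 98854415 to 98884053) encodes a family member known to oppose BMP2 and BMP4 signalling. The null differentiating libraries had 7.78, 8.33, 5.47 and 5.65 CPM and the intact differentiating libraries 2.6, 1.38, 2.02 and 0.509 CPM, with no overlap. Null cells were higher by 2.06 ± 0.42 on the log2 scale (edgeR adjusted p = 0.000879). In proliferating cells the order was opposite: 0.0698, 0, 0.0416 and 0 CPM in null libraries against 0.678, 0.704, 0.507 and 0.27 CPM in intact libraries, again with no overlap (log2 fold change -4.02 ± 0.80, edgeR adjusted p = 0.000772). The null proliferating level rested on 3 counts and was 5.43% of the intact level (95% counting interval 1.08 to 17%). The rise of Bmp3 on differentiation was thus larger in null cells, where the proliferating level was 0.434% of the differentiating level (95% counting interval 0.0894 to 1.27%), than in intact cells (1.60 ± 0.47 on the log2 scale), and the difference between these responses passed its own test (interaction 6.08 ± 0.88 on the log2 scale, edgeR adjusted p = 0.000252).

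Bmp7 (Entrez 12162; chromosome 2, 172868012 to 172940321), a ligand of another branch of the family, was the ligand gene of proliferating cells. Null proliferating libraries had 96.8, 102, 98.4 and 130 CPM and intact proliferating libraries 61.3, 103, 108 and 103 CPM. These groups overlapped and did not differ beyond their spread (log2 fold change 0.18 ± 0.22, edgeR adjusted p = 0.548). In differentiating cells the null libraries had 28.1, 31.1, 16.7 and 14.4 CPM, all above the intact libraries at 10.2, 12.6, 10.7 and 10.8 CPM (1.03 ± 0.23, edgeR adjusted p = 0.00212). Bmp7 fell on differentiation by 3.09 ± 0.24 in intact cells and by 2.24 ± 0.23 in null cells on the log2 scale (edgeR adjusted p = 3.96e-08 and 6.64e-07). The difference between these falls did not pass the test (0.84 ± 0.32, edgeR adjusted p = 0.0701), but did without intact replicate 1 of both conditions (0.96, edgeR adjusted p = 0.0285).

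**Figure D1:**
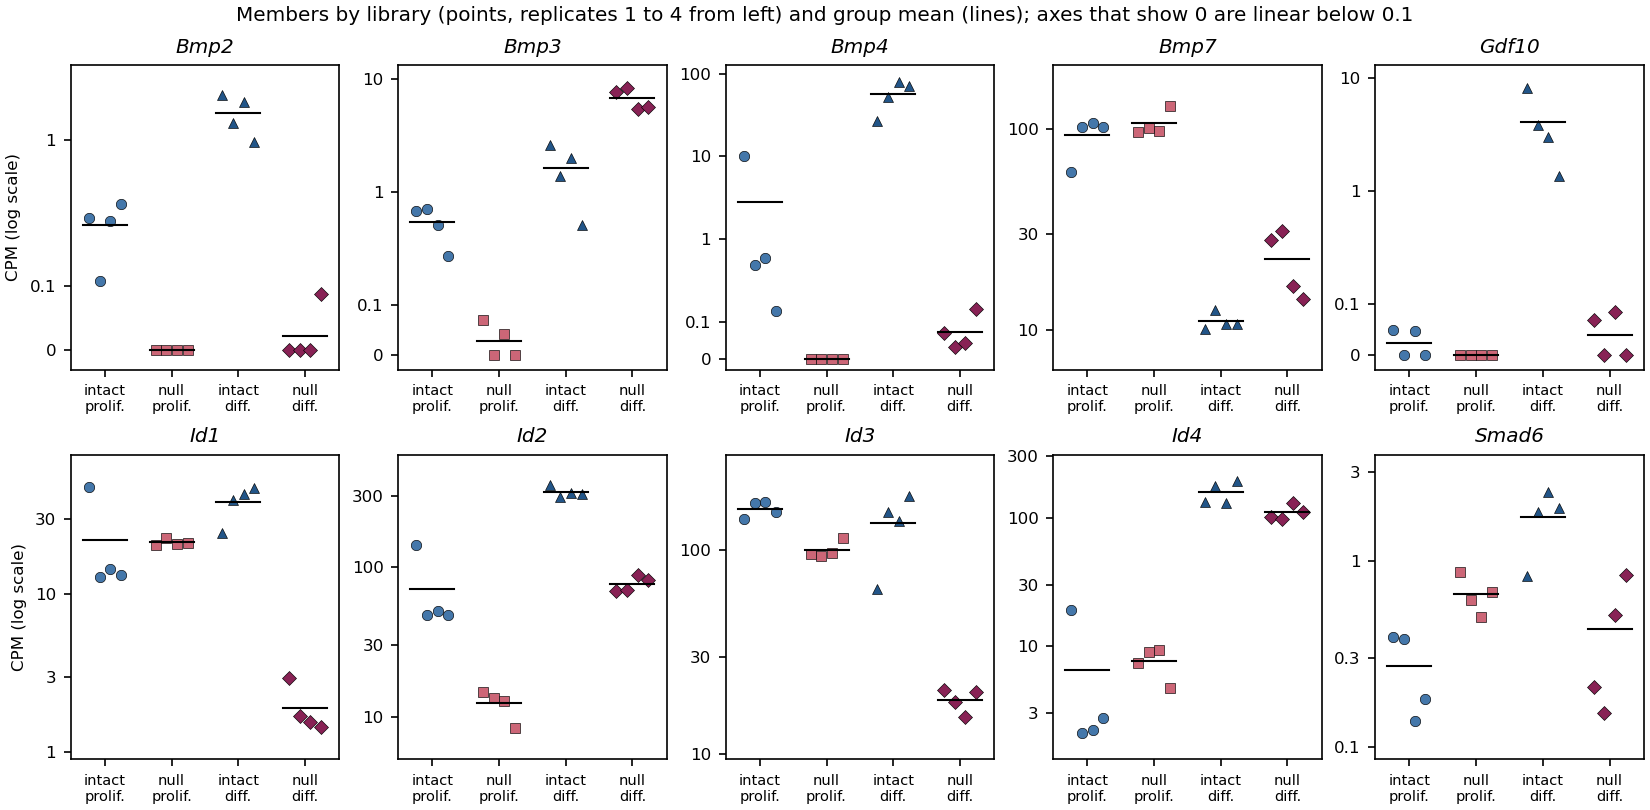
Level of each of the 10 genes in each library, in CPM on a log axis that is linear below 0.1 where 0 is shown. Points are libraries with replicates 1 to 4 from left to right, and lines are group means. Bmp4 in intact differentiating cells lies between 26.9 and 79 CPM and in null differentiating cells between 0.0306 and 0.145 CPM.

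For the targets, the starts of 6 members were found in the RefSeq promoter table of GRCm38.p6 (Bmp4, Gdf10, Id2, Id3, Id4 and Smad6). Bmp2, Bmp3, Bmp7 and Id1 had no entry. The sequences run from 250 bases before to 50 bases after the start given in the promoter table and are given for Bmp4 and for the 4 targets in the table, since SMAD complexes reach targets through short motifs near gene starts. Capitals mark the motifs searched on both strands: GTCTAGAC, a palindrome bound by SMADs, GGCGCC, a GC-rich SMAD-binding motif, and GGAGCC, another GC-rich motif, whose other strand reads GGCTCC.
Bmp4, chr14:46390620-46390919, minus strand: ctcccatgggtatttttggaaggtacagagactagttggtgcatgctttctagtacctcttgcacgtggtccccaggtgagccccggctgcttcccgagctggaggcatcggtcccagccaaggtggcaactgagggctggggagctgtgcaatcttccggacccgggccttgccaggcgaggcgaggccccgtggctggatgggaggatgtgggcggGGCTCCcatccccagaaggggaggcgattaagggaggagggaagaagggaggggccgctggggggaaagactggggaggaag
Id2, chr12:25096043-25096342, minus strand: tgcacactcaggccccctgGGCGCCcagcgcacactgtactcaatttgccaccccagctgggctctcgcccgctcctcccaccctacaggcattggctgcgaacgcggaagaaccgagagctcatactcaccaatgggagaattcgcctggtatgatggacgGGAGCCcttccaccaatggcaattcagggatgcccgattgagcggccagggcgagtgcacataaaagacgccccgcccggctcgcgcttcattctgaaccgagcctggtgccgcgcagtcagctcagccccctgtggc
Id3, chr4:136143572-136143871, plus strand: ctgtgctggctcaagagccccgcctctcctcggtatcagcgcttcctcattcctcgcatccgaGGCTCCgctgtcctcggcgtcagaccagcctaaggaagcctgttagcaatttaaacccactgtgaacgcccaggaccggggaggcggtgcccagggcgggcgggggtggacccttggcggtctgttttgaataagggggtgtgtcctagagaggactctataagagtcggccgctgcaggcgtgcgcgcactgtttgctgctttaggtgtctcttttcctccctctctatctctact
Id4, chr13:48260866-48261165, plus strand: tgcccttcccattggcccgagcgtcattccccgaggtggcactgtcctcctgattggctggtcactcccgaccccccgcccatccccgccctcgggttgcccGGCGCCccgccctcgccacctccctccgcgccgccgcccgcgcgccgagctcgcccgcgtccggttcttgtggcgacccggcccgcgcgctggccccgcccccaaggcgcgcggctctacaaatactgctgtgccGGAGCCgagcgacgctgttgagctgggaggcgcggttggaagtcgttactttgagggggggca
Smad6, chr9:64022010-64022309, minus strand: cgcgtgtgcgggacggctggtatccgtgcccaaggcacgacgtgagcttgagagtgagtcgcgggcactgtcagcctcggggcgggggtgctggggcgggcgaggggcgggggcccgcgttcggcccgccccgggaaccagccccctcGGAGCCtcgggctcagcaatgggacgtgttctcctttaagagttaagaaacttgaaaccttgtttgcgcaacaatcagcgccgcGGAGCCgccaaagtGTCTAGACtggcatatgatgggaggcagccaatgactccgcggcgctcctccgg
GTCTAGAC was found in 0.213% of the 32817 promoters of the same length in the table and, among the 6 members, in Smad6, where it begins 4 bases before the start that the table uses. For Smad6 that start lies inside the gene as annotated, so the motif lies within the annotated gene, near its 5′ end. GGCGCC was found in 11.9% of all promoters and in those of Gdf10, Id2 and Id4. GGAGCC was found in 30.8% of all promoters and in all 6 of the members, with 2 copies in Smad6. The 6 promoters had 60.0 to 77.3% G and C bases against a median of 52.7% over all promoters, and GC-rich motifs are more frequent in such sequence. The matches are letters in a window and say nothing of binding in these cells.

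The ID genes did not move as a block. Id1 (Entrez 15901; chromosome 2, 152736251 to 152737410) had 24.4, 39.3, 43 and 47 CPM in the intact differentiating libraries and 2.93, 1.69, 1.55 and 1.45 CPM in the null differentiating libraries. The groups were far apart, with a log2 fold change of -4.35 ± 0.43 (edgeR adjusted p = 2.18e-06). In proliferating cells the null libraries had 20.4, 22.8, 20.9 and 21.1 CPM and the intact libraries 47.9, 12.8, 14.46 and 13.2 CPM. The null libraries lay above intact replicates 2 to 4 and below intact replicate 1. With all libraries there was no call (-0.05 ± 0.37, edgeR adjusted p = 0.925), and without intact proliferating replicate 1 null cells were higher by 0.66 on the log2 scale (edgeR adjusted p = 0.0295). On differentiation Id1 fell in null cells by 3.49 ± 0.42 on the log2 scale (edgeR adjusted p = 3.17e-06). In intact cells its change was 0.80 ± 0.37 (edgeR adjusted p = 0.064), or 1.51 without proliferating replicate 1 (edgeR adjusted p = 3.35e-05). The responses of the genotypes differed by -4.29 ± 0.56 (interaction, edgeR adjusted p = 0.000156).

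Id3 (Entrez 15903; chromosome 4, 136143822 to 136145392) shared this pattern in differentiating cells. Its intact differentiating libraries had 64.3, 154, 139 and 183 CPM and its null differentiating libraries 20.6, 18.1, 15.2 and 20.1 CPM. There was no overlap (log2 fold change -2.87 ± 0.24, edgeR adjusted p = 3.69e-07). In proliferating cells 95.3, 93.7, 96.1 and 114 CPM in null libraries stood against 142, 170, 171 and 153 CPM in intact libraries. This was a smaller difference, also without overlap (-0.67 ± 0.22, edgeR adjusted p = 0.0244), and its call was lost when null replicate 1, 2 or 3 or intact replicate 2 or 3 of these groups was left out (edgeR adjusted p 0.0555 to 0.0586). Id3 fell on differentiation by 2.43 ± 0.23 in null cells (edgeR adjusted p = 2.75e-07) and changed by -0.23 ± 0.22 in intact cells (edgeR adjusted p = 0.344). The difference between the responses was -2.20 ± 0.31 (edgeR adjusted p = 0.00027).

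Id2 (Entrez 15902; chromosome 12, 25093799 to 25096092) was lower in null cells in both conditions. Its proliferating libraries had 14.7, 13.3, 12.8 and 8.36 CPM in null and 140, 48, 50.9 and 47.7 CPM in intact cells. Its null differentiating libraries had 69.3, 70.3, 88.1 and 82.2 CPM and its intact ones 353, 293, 314 and 306 CPM. In each condition all null libraries lay below all intact ones, and the log2 fold changes were -2.55 ± 0.31 (edgeR adjusted p = 1.95e-05) and -2.03 ± 0.30 (edgeR adjusted p = 6.05e-05). Intact proliferating replicate 1 was the highest of its group, and without it the first of these was smaller and still called (edgeR adjusted p = 4.18e-07). Id2 rose on differentiation in both genotypes, by 2.14 ± 0.30 in intact (2.69 without proliferating replicate 1) and 2.66 ± 0.31 in null cells on the log2 scale. A difference between these rises was not detected (interaction 0.52 ± 0.41, edgeR adjusted p = 0.39).

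Id4 (Entrez 15904; chromosome 13, 48261116 to 48266028) was mainly a gene of differentiating cells in both genotypes. Its intact differentiating libraries had 133, 175, 129 and 194 CPM and its null differentiating libraries 101, 97.3, 131 and 110 CPM. The groups overlapped by null replicate 3, and the difference did not pass the test (-0.52 ± 0.48, edgeR adjusted p = 0.393). It was called without intact proliferating replicate 1 (-0.52, edgeR adjusted p = 0.0253), without intact replicate 1 of both conditions (-0.60, edgeR adjusted p = 0.0112) and when only the differentiating libraries were fitted (-0.58, edgeR adjusted p = 0.0159). In proliferating cells the null libraries had 7.43, 9, 9.28 and 4.68 CPM and the intact libraries 19.1, 2.11, 2.21 and 2.75 CPM. As for Id1, the null libraries lay between intact replicate 1 and the other intact libraries. The log2 fold change was 0.20 ± 0.55 (edgeR adjusted p = 0.808) with all libraries and 1.66 without intact proliferating replicate 1 (edgeR adjusted p = 0.00021). Id4 rose on differentiation by 4.59 ± 0.57 in intact cells and 3.87 ± 0.55 in null cells on the log2 scale (edgeR adjusted p = 4.54e-06 and 1.65e-05). The difference between these rises was not called (interaction -0.72 ± 0.72, edgeR adjusted p = 0.505). Without intact proliferating replicate 1 the intact rise was 6.05 and the interaction was called (-2.18, edgeR adjusted p = 0.000309), as it was without intact replicate 1 of both conditions (-2.25, edgeR adjusted p = 0.000183).

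Smad6 (Entrez 17130; chromosome 9, 63953076 to 64022085), the feedback inhibitor, was low throughout. Intact differentiating libraries had 0.83, 1.82, 2.33 and 1.92 CPM and null differentiating libraries 0.209, 0.153, 0.511 and 0.841 CPM. The groups touched, null replicate 4 being just above intact replicate 1, and the null group was lower (log2 fold change -1.97 ± 0.46, edgeR adjusted p = 0.00269). In proliferating cells the order was opposite, with 0.872, 0.617, 0.499 and 0.68 CPM in null and 0.388, 0.379, 0.138 and 0.18 CPM in intact libraries. These did not overlap, but the difference missed the threshold (1.31 ± 0.54, edgeR adjusted p = 0.0641) and passed it without intact replicate 1 of both conditions (1.55, edgeR adjusted p = 0.0347). Smad6 rose in intact cells by 2.66 ± 0.52 on differentiation (edgeR adjusted p = 0.000279) and changed by -0.62 ± 0.48 in null cells (edgeR adjusted p = 0.259). The interaction was -3.28 ± 0.71 (edgeR adjusted p = 0.00414).

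**Figure D2:**
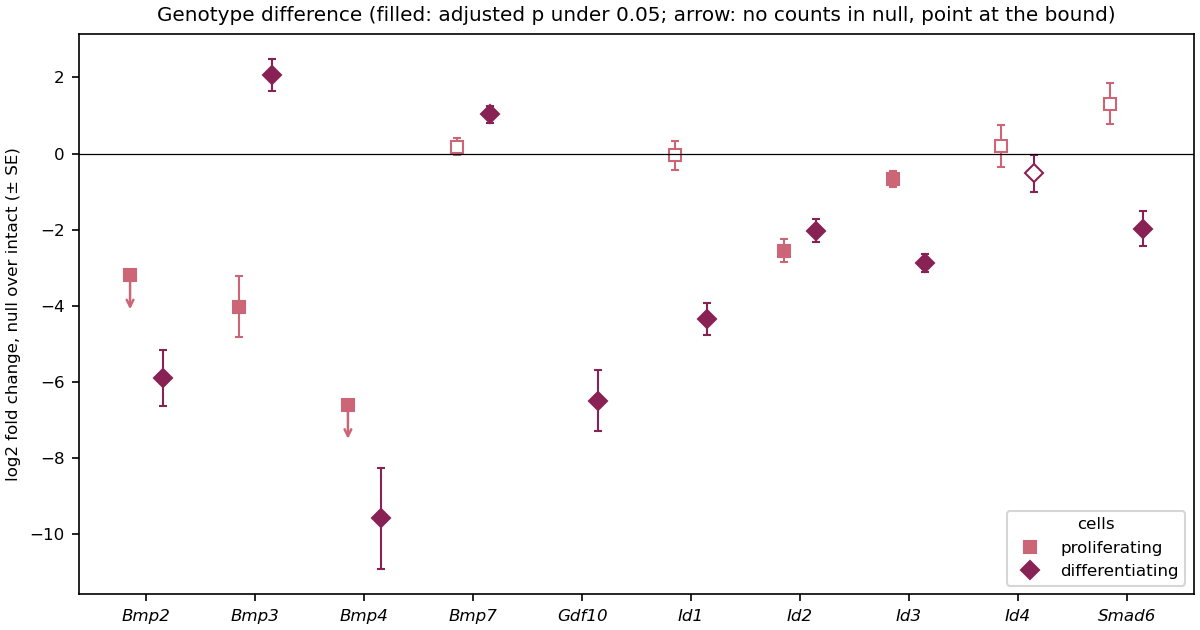
Log2 fold change of null over intact cells for each gene, with SE bars. Filled points passed the adjusted p threshold, and arrows start at the bound for genes without a count in null cells. Gdf10 in proliferating cells is left out because both groups were at or under the floor. Bmp3 and Bmp7 are the members above 0 among the filled differentiating points, at 2.06 and 1.03.

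Counted over the 10 members, 5 fell and 0 rose in null proliferating cells, where 38.6% of the 15177 tested genes were called (19.0% higher and 19.7% lower). The members' median log2 fold change was -1.61 in the fit, or -0.67 over 9 members with Bmp2 and Bmp4 at their bounds and Gdf10 left out, against -0.01 over all tested genes. Without intact replicate 1 of both conditions 8 members were called, the additions being Id1, Id4 and Smad6, all higher in null cells. In differentiating cells 7 fell and 2 rose, where 46.4% of tested genes were called (24.3% higher and 22.0% lower) with a members' median of -2.45 against 0.04. Null and intact libraries did not overlap for 6 members in proliferating and 8 in differentiating cells, against 39.0% and 45.3% of all tested genes. All 10 members passed the filter on low counts, several of them only through the group in which they were high. Bmp2, Bmp3 and Bmp4, among the 5 that fell in null proliferating cells, passed only through differentiating libraries. With only proliferating libraries fitted, the filter left them out. Then 3 members were called, among them Smad6, higher in null cells (log2 fold change 1.3, edgeR adjusted p = 0.0268).

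On differentiation of intact cells 7 members rose and Bmp7 fell, against 72.0% of tested genes called (36.7% higher and 35.3% lower) and medians of 2.33 for the members and 0.02 for all genes. In null cells Bmp3, Id2 and Id4 rose and Bmp7, Id1 and Id3 fell, against 69.0% called (34.6% higher and 34.4% lower). Libraries of the conditions did not overlap for 7 members in either genotype, against 62.8% of tested genes in intact and 67.0% in null cells. The members' median was 2.59 in the fit and 0.55 over 9 members with Bmp4 and Gdf10 at their bounds, against 0.02 over all genes. Shares of calls of this size leave the members' count near the background in both responses. The test of the difference between responses called Bmp3, higher in null cells, and Id1, Id3 and Smad6, lower, where 22.7% of tested genes were called (12.7% higher and 9.93% lower). Bmp2, Bmp4 and Gdf10 were not called (edgeR adjusted p = 0.612, 0.89 and 0.925), and no log2 value is given for them because they had no count in null proliferating cells. These comparisons share libraries and are not independent of each other.

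Per length of gene model, the make-up of the ligand transcripts changed with condition in intact cells. Bmp7 was 95.7 ± 6.97% of the summed level of the 5 ligand genes (CPM per kb, mean ± SD, n = 4) when intact cells proliferated and 16.1 ± 4.87% when they differentiated. There Bmp4 was 74.9 ± 12.5%, Gdf10 5.45 ± 5.61%, Bmp2 1.83 ± 1.1% and Bmp3 1.64 ± 1.35%, the last 3 not differing beyond their spread. In null differentiating cells Bmp7 stayed the main ligand transcript at 83 ± 2.84%, followed by Bmp3 at 16.5 ± 2.39%. In null proliferating cells nearly all of the ligand level was Bmp7, with Bmp3 at 0.0181 ± 0.0222%.

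The ID transcripts shifted as well. Id3 held 73.5 ± 3.52% of the summed ID level per kb in null and 68.5 ± 15% in intact proliferating cells. In intact differentiating cells Id2 led with 47.9 ± 9.57%, then Id3 with 26.2 ± 7.7%, Id4 with 17.9 ± 2.11% and Id1 with 7.9 ± 1.4%. Null differentiating cells had another order, with Id4 at 44.4 ± 2.1%, Id2 at 40.9 ± 1.4%, Id3 at 13.2 ± 2.51% and Id1 at 1.43 ± 0.598%. Id4 lay above Id2 in each of these null libraries, with 43.2 to 47.5% against 38.9 to 42%.

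**Figure D3:**
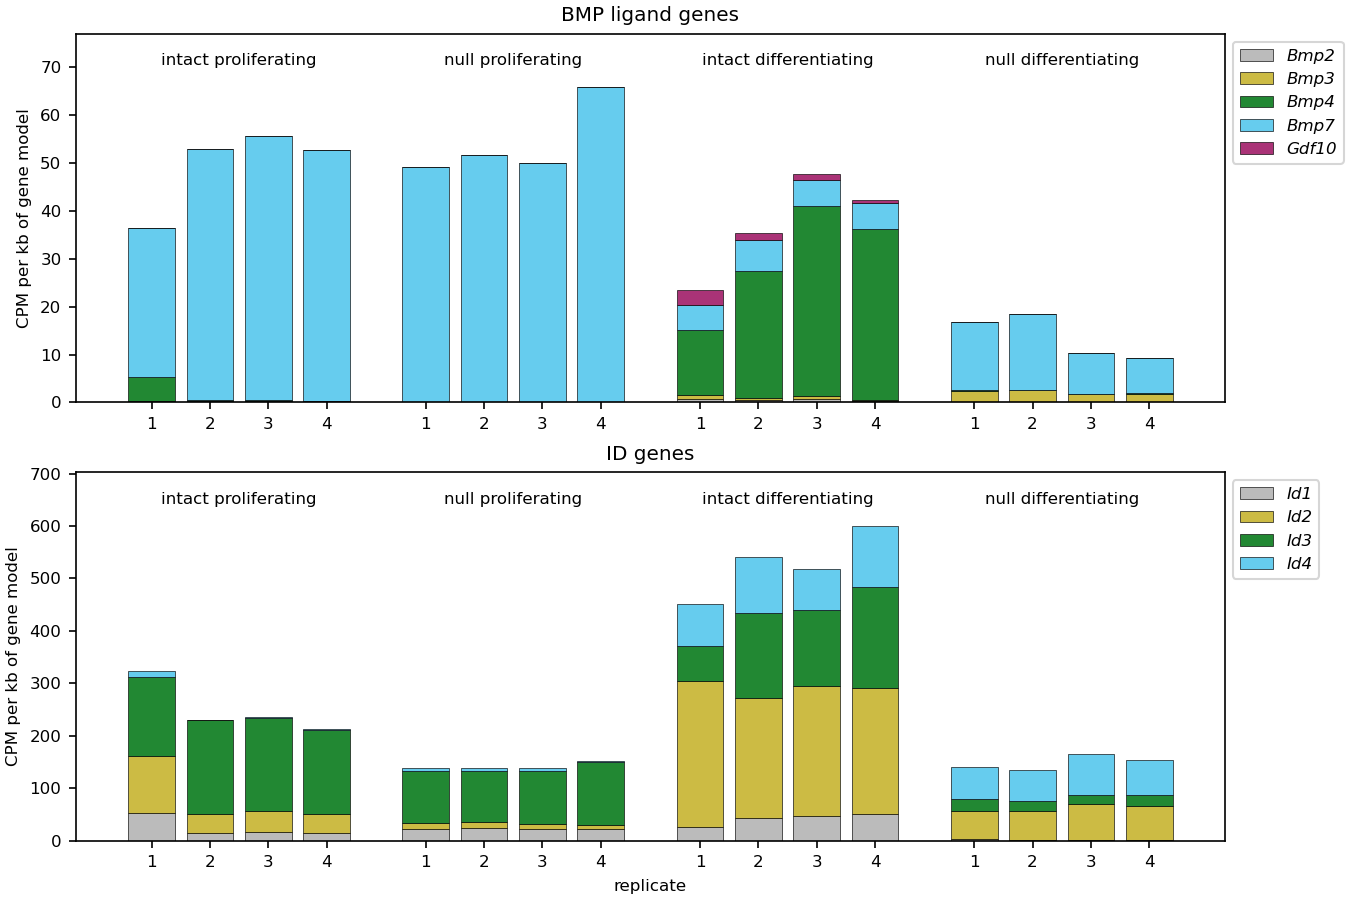
Summed level of the ligand genes (top) and of the ID genes (bottom) in each library, in CPM per kb of gene model, with each gene's part in its own colour. Bmp7 makes up most of each proliferating ligand bar (85.2% in intact replicate 1), Bmp4 most of the intact differentiating bars, and the ID sums reach 452 to 601 CPM per kb in intact differentiating cells against 135 to 166 in null differentiating cells.

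Set against each other by library, ligand and target sums did not follow one order. The ligand sum in CPM per kb was 49.2 to 65.8 in null proliferating, 36.6 to 55.7 in intact proliferating, 9.25 to 18.5 in null differentiating and 23.5 to 47.7 in intact differentiating libraries. The ID sum was 138 to 152, 214 to 323, 135 to 166 and 452 to 601 in the same groups. Proliferating null cells thus had a ligand sum that overlapped that of intact cells, beside an ID sum below every intact library. Null differentiating cells were lowest in the ligand sum, and their ID sum overlapped that of null proliferating cells.

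For single pairs, the 4 intact differentiating libraries ranked 1, 2, 4, 3 from low to high in Bmp4, and in the same order in Smad6. Id1 ranked 1, 2, 3, 4 and Id3 ranked 1, 3, 2, 4, so that replicate 1 was lowest in Bmp4, Smad6, Id1 and Id3, as in Bmp7 (10.2 CPM). Other members did not share this order. Replicate 1 was the highest library in Id2 (353 CPM), Bmp2 (2.03 CPM), Bmp3 (2.6 CPM) and Gdf10 (8.07 CPM), and replicate 3 was the lowest in Id4 (129 CPM). The summed oligodendrocyte lineage markers of these libraries were 2630, 3810, 5200 and 4780 CPM, in the order of Bmp4. Their astrocyte markers summed to 1350, 2020, 1960 and 2170 CPM, in the order of Id3, and replicate 1 was also highest in neuron markers (5290 against 1890 to 2780 CPM) and in mural and mesenchymal markers (189 against 53.6 to 97 CPM). The part of any of these cells in the order was not tested. In intact proliferating cells, replicate 1 was the highest library in Bmp4, Id1, Id2 and Id4 and the lowest in Bmp7 and Id3. Null proliferating libraries had no Bmp4 count and still had Id1 at 20.4 to 22.8 CPM, above the 12.8 to 14.46 CPM of intact replicates 2 to 4. Null differentiating libraries, with Bmp4 at most 0.145 CPM, had the lowest Id1 and Id3 of all groups. Groups of 4 libraries that lie apart give no pooled correlation, and none was computed.

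**Figure D4:**
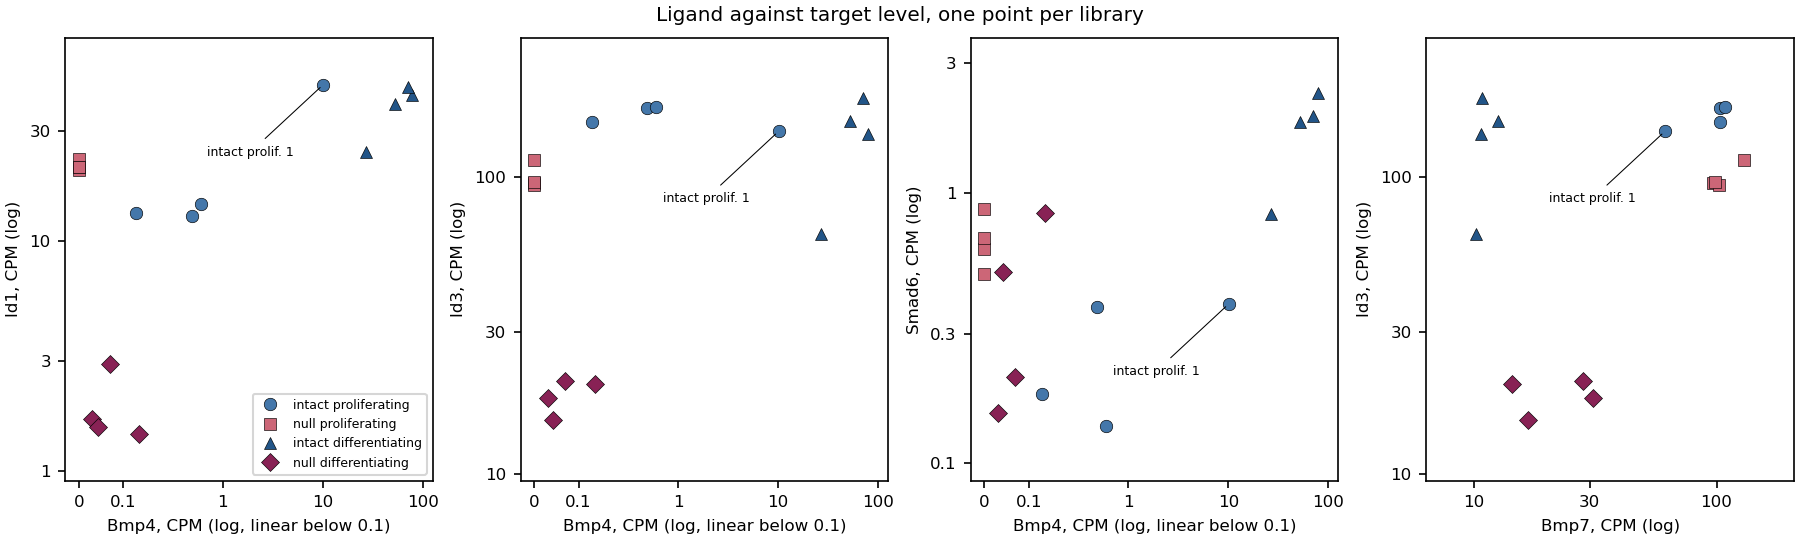
Bmp4 against Id1, Id3 and Smad6, and Bmp7 against Id3, with 1 point per library and both axes in CPM (log scale, linear below 0.1 for Bmp4). Null proliferating libraries sit at 0 in Bmp4 with Id1 at 20.4 to 22.8 CPM, and null differentiating libraries sit apart at the bottom, with Id1 at 1.45 to 2.93 CPM.

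Neural stem markers and markers of other cells moved with the genotype. Of the 7 neural stem markers, 5 were higher and 0 lower in null differentiating cells (24.3% of all tested genes were higher). The 7 oligodendrocyte lineage markers summed to 63 to 85.1 CPM in null and 241 to 902 CPM in intact proliferating libraries (Mog at 0 in the latter), and to 407 to 681 CPM in null and 2630 to 5200 CPM in intact differentiating libraries. Of these, 6 fell and 0 rose in null cells in either condition, where 19.7% and 22.0% of all tested genes fell. The call of Mag in proliferating cells was lost without intact replicate 1 (edgeR adjusted p = 0.0984). That of Pdgfra in differentiating cells (-0.79, edgeR adjusted p = 0.0456) was kept in 4 of 16 fits that left out 1 library. The 7 astrocyte markers summed to 3490 to 5570 CPM in null and 1350 to 2170 CPM in intact differentiating libraries. Of them, 4 were higher and 0 lower in null cells (24.3% of all tested genes were higher). Among the 4, Aldh1l1 was called in 13 of 16 fits that left out 1 library. Gfap (means of 1280 against 301 CPM) and Aqp4 (650 against 271 CPM) were not called (edgeR adjusted p = 0.138 and 0.13). S100b went the other way without a call (33.6 ± 3.24 against 88.8 ± 28.2 CPM, edgeR adjusted p = 0.11). The 8 mural and mesenchymal markers summed to 17.7 to 33.3 CPM in null and 53.6 to 189 CPM in intact differentiating libraries, and to 40.2 to 127 against 11.2 to 15.5 CPM in proliferating ones. This list split: the smooth muscle actin gene Acta2 was higher in null proliferating cells (59.8 ± 41.8 against 3.15 ± 0.724 CPM) and in null differentiating cells, whereas 3 and 5 other markers, among them the collagen gene Col1a2, were lower (19.7% and 22.0% of all tested genes). The 5 choroid plexus markers ranged from 3.55 to 88.7 CPM in null and 7.52 to 108 CPM in intact differentiating libraries. The 7 neuron markers summed to 2090 to 2480 against 1890 to 5290 CPM in differentiating libraries, with 1 higher in null cells (Map2, 0.33 ± 0.09) and 3 lower (Syt1, Snap25 and Stmn2, by log2 fold changes of -5.86, -2.46 and -8.85), where 22.0% of all tested genes were lower. The part of any of these cells in the ligand and ID differences was not tested.

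Of 11 further ligand genes of the family, only Bmp6 passed the filter. It rose on differentiation by 5.22 in intact and 4.49 in null cells on the log2 scale, and its genotype differences missed the threshold (0.18 ± 1.24 in proliferating cells, edgeR adjusted p = 0.924, and -0.56 ± 0.60 in differentiating cells, edgeR adjusted p = 0.472). Among 12 receptor and co-receptor genes, 10 were tested. In differentiating cells 2 were higher and 4 lower in null cells, with a median log2 fold change of -0.24. A share of 6 of 10 called is to be read against 46.4% of all tested genes. The type I receptor gene Bmpr1b had 120 ± 21.5 CPM there, against 53.2 ± 13.6 CPM in intact cells (SD, n = 4; log2 fold change 1.18 ± 0.17, edgeR adjusted p = 6.99e-05), while Bmpr1a, the other main type I receptor, differed by -0.38 ± 0.15 (edgeR adjusted p = 0.0451), a call kept in 4 of 16 fits that left out 1 library. The type II receptor gene Bmpr2 was higher (0.52 ± 0.12) and Acvr2a lower (-1.03 ± 0.19). In proliferating cells 1 receptor gene was higher (Bmpr2, 0.33 ± 0.12, edgeR adjusted p = 0.0434, called in 6 of the 16 fits) and 1 lower (Acvr2b, -0.91 ± 0.19, edgeR adjusted p = 0.00134), where 38.6% of all tested genes were called.

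All 10 genes of SMADs and their modulators were tested. In differentiating cells 2 were higher and 3 lower in null cells (median -0.04), a share close to the 46.4% called over all tested genes. Smad9, which encodes a BMP-responsive SMAD, had 1.99 ± 0.731 CPM there, against 13.7 ± 4.84 CPM in intact cells (log2 fold change -2.77 ± 0.29, edgeR adjusted p = 3.86e-06). Smad7, the other inhibitory SMAD, was at 4.57 ± 0.313 against 14.8 ± 2.73 CPM (-1.69 ± 0.30, edgeR adjusted p = 0.000295). Smad5, which like Smad9 encodes a BMP-responsive SMAD, was higher by a small amount (0.33 ± 0.11, edgeR adjusted p = 0.0232, or 0.0652 without intact differentiating replicate 1). In proliferating cells 0 were higher and 3 lower (median -0.02), among them Smad9 (-1.20 ± 0.32) and Smad5 (-0.37 ± 0.11, called in 14 of the 16 fits).

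Genes for antagonists, most of which bind ligands outside the cell, split in both directions (Bambi, also in this list, encodes a membrane pseudoreceptor). Of 15 tested of 19, 4 were higher and 4 lower in null proliferating cells (median -0.23), and 5 higher and 7 lower in null differentiating cells (median -0.62), against 38.6% and 46.4% of all tested genes called. Noggin, a secreted inhibitor of BMP2 and BMP4, had transcripts (Nog) at 22.2 ± 5.98 CPM in intact differentiating cells and 4.96 ± 1.44 CPM in null ones (log2 fold change -2.16 ± 0.39, edgeR adjusted p = 0.000412). Chrdl1, a chordin-like inhibitor, was higher in null cells in both conditions (1.12 ± 0.16 and 1.42 ± 0.17), as was the inhibitor gene Nbl1 (0.84 ± 0.14 and 1.96 ± 0.14). Vwc2, which encodes a secreted brain protein of the chordin type, was at 0.123 ± 0.121 against 6.33 ± 1.66 CPM in differentiating cells (-5.51 ± 0.50, edgeR adjusted p = 8.39e-07) and lower in null proliferating cells too (-4.19 ± 0.44).

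A second list of 7 known BMP targets, which repeats Smad7, Smad9 and Bambi from the lists above, had 6 tested genes. In null differentiating cells 1 was higher and 3 lower (median -1.10; 24.3% and 22.0% of all tested genes). The 3 were the shared genes, and the higher one was Atoh8, a bHLH gene, at 8.87 ± 2.66 CPM against 2.08 ± 0.845 CPM (2.10 ± 0.44, edgeR adjusted p = 0.00129). Of 7 tested bHLH genes whose products meet ID proteins, 1 was higher and 1 lower in null differentiating cells. These were Tcf12, which encodes an E protein (0.69 ± 0.18 on the log2 scale, edgeR adjusted p = 0.00641), and the neuronal differentiation gene Neurod1 (-1.84 ± 0.50, edgeR adjusted p = 0.0074). In null proliferating cells 3 were lower and 0 higher (Neurog2, Neurod1 and Tcf4, the last called in 10 of the 16 fits), where 19.7% of all tested genes were lower. Neurod1 had 0.0567 to 0.628 CPM in null and 1.61 to 2.52 CPM in intact proliferating libraries (-2.30 ± 0.64, edgeR adjusted p = 0.0102). Neurog2 rested on intact replicate 1, at 3.2 CPM against 0.135 to 0.379 CPM in the other intact libraries, and its call was lost without it (-3.18 with all libraries and -1.01 without, edgeR adjusted p = 0.303).

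**Figure D5:**
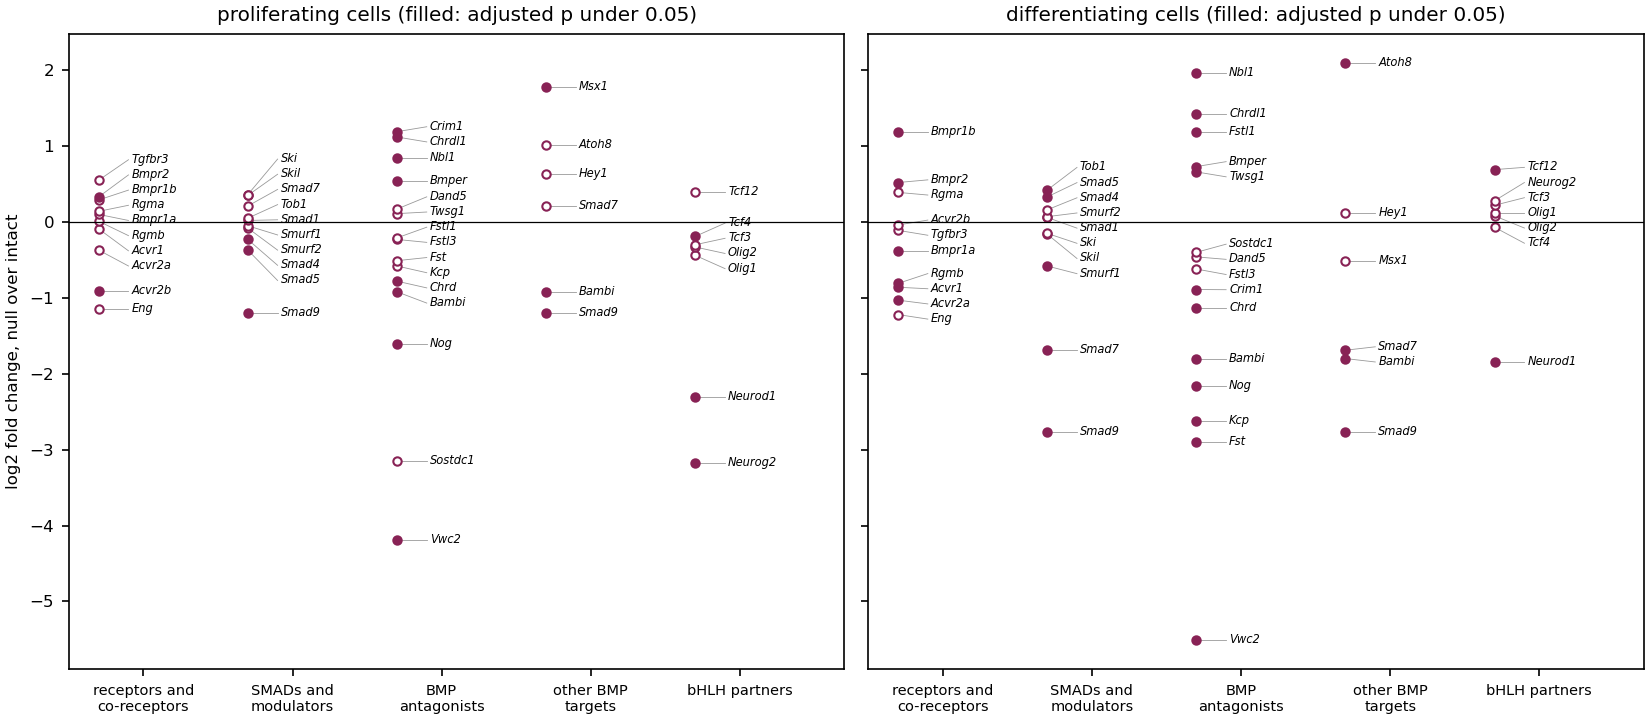
Log2 fold change of null over intact cells for other genes of the pathway, by role, in proliferating (left) and differentiating (right) cells. Filled points passed the adjusted p threshold. In differentiating cells 5 antagonist genes lie above 0 and 7 below 0 among the filled points, and Smad9 and Smad7 lie at -2.77 and -1.69.

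The genes most like a member over the 16 libraries were found by the root mean square difference of centred log2 CPM. For Bmp4 they were Slitrk6 (0.89), Lingo2 (0.97) and Plcg2 (1.02), against a median of 3.91 over all tested genes. Slitrk6, a neuronal transmembrane protein gene, was at 17 ± 6.32 CPM in intact differentiating cells and at most 0.709 ± 0.968 CPM in the other groups. For Id1 the nearest gene was Id3 (0.80; median 1.79). For Id3 they were Tmem63a (0.46), Unc5b (0.52) and Tent5c (0.53; median 1.36), and for Bmp7 they were Txn1 (0.27), Peg12 (0.28) and Ano3 (0.28; median 1.47). Likeness of pattern is a description of these libraries.

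Several members overlap annotated long non-coding RNA genes in GRCm38.p6, and no source used here states whether counting used strand. A330033J07Rik, which overlaps the start of Id4, had 418 counts over the 16 libraries, and Gm15217, which overlaps the end of Bmp4, had 0 counts.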

How the data were processed

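The deposited files, 1 for each library, hold whole-number read counts by gene and gene model lengths in bases, per the file headers. Reads had been demultiplexed with bcl2fastq and counted by the authors with featureCounts against mm10, per the submitters' processing notes. No source used here gives strand use, aligner or versions.

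Of 27179 genes, 25275 were matched to RefSeq symbols (GRCm38.p6, the assembly mm10 names) and 15177 passed filterByExpr (minimum count 10). All 16 libraries entered 1 model in edgeR 4.0.16 under R 4.3.3 (TMM scaling, quasi-likelihood, 1 mean per group, no covariate). Adjusted p under 0.05 over all tested genes was a call. The SE is the unshrunk log2 fold change over the square root of F. Counting intervals (95%) and floors (3 counts over a group) cover counting error only. A check of the fit on simulated counts covered only the genotype contrast in proliferating cells. It gave every gene the same spread and had no deviating library, unlike these data.

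The members and gene lists were chosen with earlier results of these data known. Genes named were the 10 members, Kat7, the 3 genes most alike for 4 members (log2 CPM with a prior count of 2), and list genes with the 3 lowest adjusted p among calls or with at least 20 CPM in a group. Bmp6, Mag and Col1a2 were named after their values were seen. Alternatives were DESeq2 1.42.0, other scaling, filters and blocks, and each library left out, which was extended to the list genes after seeing the data. A combined table with the same samples was not used. Some genes of the lists are not reported here and are left out of their counts.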

Additional observations from a re-analysis of the deposited data

Results flagged for a closer look

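In 40 groups of 4 libraries, 1 per gene and group, 9 held a library far from the other 3 of its group by Dixon's criterion. Bmp2, Bmp4 and Gdf10 in null proliferating cells had no counts and could not be flagged. The criterion's rate of about 1 in 20 groups is for independent, normally distributed values. The genes here share libraries, so the 9 are not weighed against that rate. Intact proliferating replicate 1 was such a library for 5 genes: high in Bmp4 (10.1 CPM), Id1 (47.9 CPM), Id2 (140 CPM) and Id4 (19.1 CPM), and low in Bmp7 (61.3 CPM). Null proliferating replicate 4 was high in Bmp7 (130 CPM) and Id3 (114 CPM). Null differentiating replicate 1 was high in Id1 (2.93 CPM) and null differentiating replicate 4 was the 1 library of its group with Bmp2 counts (0.087 CPM). A group with counts in only 1 library is always flagged.

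The response to differentiation differed between the genotypes, by edgeR's test of the interaction, for Bmp3 (6.08 on the log2 scale, null response minus intact response), Id1 (-4.29), Id3 (-2.20) and Smad6 (-3.28).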

How the results depend on the processing

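Leaving out 1 library turned 7 member fold changes in sign or to 0. Of those not turned, 11 became calls, 5 lost their call and 729 were kept. The other alternatives turned 2, and of those not turned 14 became calls and 313 were kept. Id1 in proliferating cells, counted as turned, also became a call without intact proliferating replicate 1 and without intact replicate 1 of both conditions. In proliferating cells, 3 members were called when only those libraries were fitted, where the low ligand genes no longer passed the filter, and 8 without intact replicate 1 of both conditions, against 5 with all libraries. Id1 in proliferating cells changed sign under the replicate block (0.10, edgeR adjusted p = 0.854) and without that pair of libraries (0.66, edgeR adjusted p = 0.00396). Leaving out each library in turn, its log2 fold change ranged from -0.24 to 0.66, that of Id4 in proliferating cells from -0.09 to 1.66 (-0.06 without intact replicate 4), the Id2 interaction from -0.03 to 0.67, the Bmp2 response in null cells from 0 to 2.94 and the Id3 response in intact cells from -0.42 to 0. The members called ranged from 4 to 7 in proliferating and 9 to 10 in differentiating cells, 8 to 9 and 6 to 6 in the intact and null responses, and 4 to 6 in the interaction.

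With library size scaling the summed ID level in null proliferating cells was 135 rather than 142 CPM per kb, and called genes split into 2234 higher and 3847 lower (63.3% lower, against 50.9%) in proliferating and 2677 and 4123 (60.6%, against 47.5%) in differentiating cells. Without division by length, Bmp7 was 75.7% of the ligand level and Id3 9.05% of the ID level in null differentiating cells. The cause of these changes was not tested.

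Residual correlations of same-numbered libraries between conditions were low: 0.126, 0.123, -0.231 and 0.117 in intact and -0.0284 to 0.0331 in null cells. With so few libraries in each group, they cannot decide whether same-numbered libraries shared a foetus. With the replicate block by number 5640, 6743, 10787, 10400 and 3151 genes were called in the 5 comparisons in the order given, and Id1 in the intact response (edgeR adjusted p = 0.0301) and Gdf10 in the null response (edgeR adjusted p = 0.0469) became calls. Id1 in the intact response was also called by DESeq2 (0.85, adjusted p = 0.0314) and by edgeR under the stricter filter (0.87, adjusted p = 0.0451), and Bmp4 in the null response by edgeR without the pair of intact libraries (adjusted p = 0.0267).

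Levels under about 1 CPM (Bmp2, Smad6, Gdf10 and Bmp3 in some groups) rest on few counts, so that only large differences are detectable. DESeq2 and the stricter filter gave no value for members they left out.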
